A study of Mus musculus with 26 samples.

Results

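Pigment cells and Schwann cells both descend from the neural crest, and 8 genes used to recognise them were read across the aorta of mice: Dct, Tyrp1, Tyr, Pmel, Mlana, Mitf, Sox10 and S100b. They are 8 of 54532 genes listed in each count file, found by matching the files' Ensembl identifiers to gene symbols in the mouse mm10 (GRCm38) annotation. They were chosen by their counts in ascending and descending aorta, so that difference is described here without a test. RNA came from aortic tissue of male mice, in which many cell types are mixed.

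The 26 libraries form 6 groups. Ascending and descending aorta were taken from untreated wild-type mice (labelled WT, 4 libraries per region) and from untreated mice heterozygous for the Fbn1 C1041G allele (C1041G/+, 4 libraries per region). Fbn1 encodes fibrillin-1, and mice with this missense allele are used as a model of Marfan syndrome. In the remaining groups C1041G/+ mice received antisense oligonucleotides (ASO) and only ascending aorta was read. One group had AGT-ASO (5 libraries), directed at the angiotensinogen gene Agt, and the other a control ASO (5 libraries). All 10 antisense libraries therefore carry the mutant allele, and no wild-type or descending sample was treated.

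Melanocytes make melanin inside melanosomes. Tyrosinase (Tyr) starts the synthesis, and Tyrp1 and dopachrome tautomerase (Dct) carry out later steps on the eumelanin side. Pmel forms the fibrils on which melanin is laid down, and Mlana is a melanosomal membrane protein needed for Pmel processing. The transcription factor MITF drives these genes in melanocytes but is also made, from other start sites, in many other cell types. SOX10 is needed for both melanocytes and Schwann cells, the glia of peripheral nerves, and S100b is a calcium-binding protein of Schwann cells, melanocytes and cartilage cells. Melanocytes without a role in coat colour are known in the mouse heart, including its valves.

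The 3 enzyme genes are shown first by their promoters, because they moved together across the libraries. RefSeq promoter sequences (GRCm38.p6) were at hand for 5 of the 8 genes, namely Dct, Tyrp1, Tyr, Mitf and S100b. The 250 bases before the RefSeq start of Tyr, Tyrp1 and Dct follow, 5′ to 3′ on the gene's strand, with the longest run of letters common to these 3 stretches in capitals.
Tyr: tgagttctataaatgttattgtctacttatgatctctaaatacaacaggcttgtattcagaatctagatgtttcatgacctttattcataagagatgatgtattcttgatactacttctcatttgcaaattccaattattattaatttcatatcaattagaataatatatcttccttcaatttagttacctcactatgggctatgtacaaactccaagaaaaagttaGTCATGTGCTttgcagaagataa
Tyrp1: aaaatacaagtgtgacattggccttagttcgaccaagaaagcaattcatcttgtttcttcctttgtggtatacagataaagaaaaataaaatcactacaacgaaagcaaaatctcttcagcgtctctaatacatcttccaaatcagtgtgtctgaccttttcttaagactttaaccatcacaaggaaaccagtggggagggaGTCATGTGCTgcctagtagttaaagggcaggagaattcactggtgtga
Dct: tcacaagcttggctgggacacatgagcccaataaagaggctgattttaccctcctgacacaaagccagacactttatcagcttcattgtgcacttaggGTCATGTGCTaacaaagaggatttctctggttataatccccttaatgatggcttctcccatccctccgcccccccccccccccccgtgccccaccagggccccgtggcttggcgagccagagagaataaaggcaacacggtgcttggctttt
The Dct stretch lies at chr14:118052247-118052496 on the minus strand, the Tyrp1 stretch at chr4:80833963-80834212 on the plus strand and the Tyr stretch at chr7:87493513-87493762 on the minus strand. The shared run, GTCATGTGCT, holds CATGTG, the core of the M-box bound by MITF. It covers bases -152 to -143 before the start in Dct, -48 to -39 in Tyrp1 and -23 to -14 in Tyr. Searched on both strands, the run of 10 letters occurs in 51 of 32851 mouse promoters of this length (0.155%), and CATGTG, which lies within it, in 4025 of them (12.3%). Neither the run nor the core was found in the listed stretches of Mitf (3 starts) and S100b. A match describes the letters only.

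Library sizes ran from 17171652 to 28554356 counts. Smooth muscle genes led the tissue, with Acta2 between 8990 and 17800 CPM (counts scaled to library size) in all 26 libraries. Markers of heart muscle and mesothelium were read mainly in the ascending libraries. The heart muscle gene Myh6 had 225 to 8770 counts in ascending and 4 to 39 in descending libraries, and the mesothelial gene Upk3b had 1618 to 5588 against 34 to 165. Agt, the target of the antisense treatment, had 2 to 26 counts per library with AGT-ASO and 6 to 22 with control ASO, too few to check the treatment in this tissue. Fbn1 counts do not check a missense allele. Nothing in the labels says which mice were littermates or which libraries were prepared together, so p-values measure the spread between these libraries.

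The enzymes of melanin synthesis were read in ascending aorta and almost absent from descending aorta. Dct, on chromosome 14 (118012790 to 118052244, minus strand), had 39, 122, 316 and 209 counts in the 4 wild-type ascending libraries. The 4 wild-type descending libraries had 0 counts each, in a group whose depth allows up to 0.0396 CPM at 0 counts. In C1041G/+ mice Dct had 7, 3, 117 and 15 counts in ascending libraries and 0, 0, 0 and 1 in descending libraries. The regions did not overlap in either genotype, in a comparison where 14.6% of 15645 genes tested did not overlap in wild type and 14.5% in C1041G/+. Because the genes were selected on this difference, nothing is read from these shares.

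Dct averaged 8.20 ± 5.92 CPM (SD, n = 4) in wild-type ascending aorta and 1.87 ± 2.95 CPM (n = 4) in C1041G/+ ascending aorta. Over summed counts and depth, ascending was at least 207-fold higher than descending in wild type, against a floor of 3 counts over the descending group. With the counting error of both sums, the exact 95% interval starts at 168-fold. In C1041G/+ it was 132-fold higher, with a 95% exact interval of 23.4 to 5260 that covers counting error only. That ratio rests on 1 count in 1 descending library, and it was 30.2 without C1041G/+ ascending replicate 6.

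Tyrp1 (chromosome 4, 80834123 to 80851719, plus strand) had 13, 30, 73 and 79 counts in wild-type ascending libraries and 0, 0, 0 and 1 in descending ones. Its counts were 3, 4, 23 and 5 in C1041G/+ ascending libraries against 0, 0, 2 and 0 in descending ones. The regions did not overlap in either genotype. The ratio of summed counts was 176 (31.3 to 7000) in wild type and 16.3 (4.19 to 140) in C1041G/+, where it was 7.25 without ascending replicate 6.

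Tyr (chromosome 7, 87424771 to 87493512, minus strand), the enzyme that starts the pathway, had the fewest counts. The wild-type ascending libraries had 3, 6, 14 and 18 counts and the descending ones 1, 0, 0 and 0, with no overlap. In C1041G/+ the counts were 0, 0, 9 and 3 in ascending and 0, 3, 1 and 1 in descending libraries, and these overlapped. The ratios were 37.1 (6.29 to 1500) and 2.24 (0.734 to 8.11). The C1041G/+ ratio turned to 0.725 without ascending replicate 6 and was 4.27 without descending replicate 4. In 9 ascending libraries with at least 100 Dct counts, Tyr counts were 4.43% to 16.2% of the Dct counts and Tyrp1 counts 19.7% to 40.0%.

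**Figure D1:**
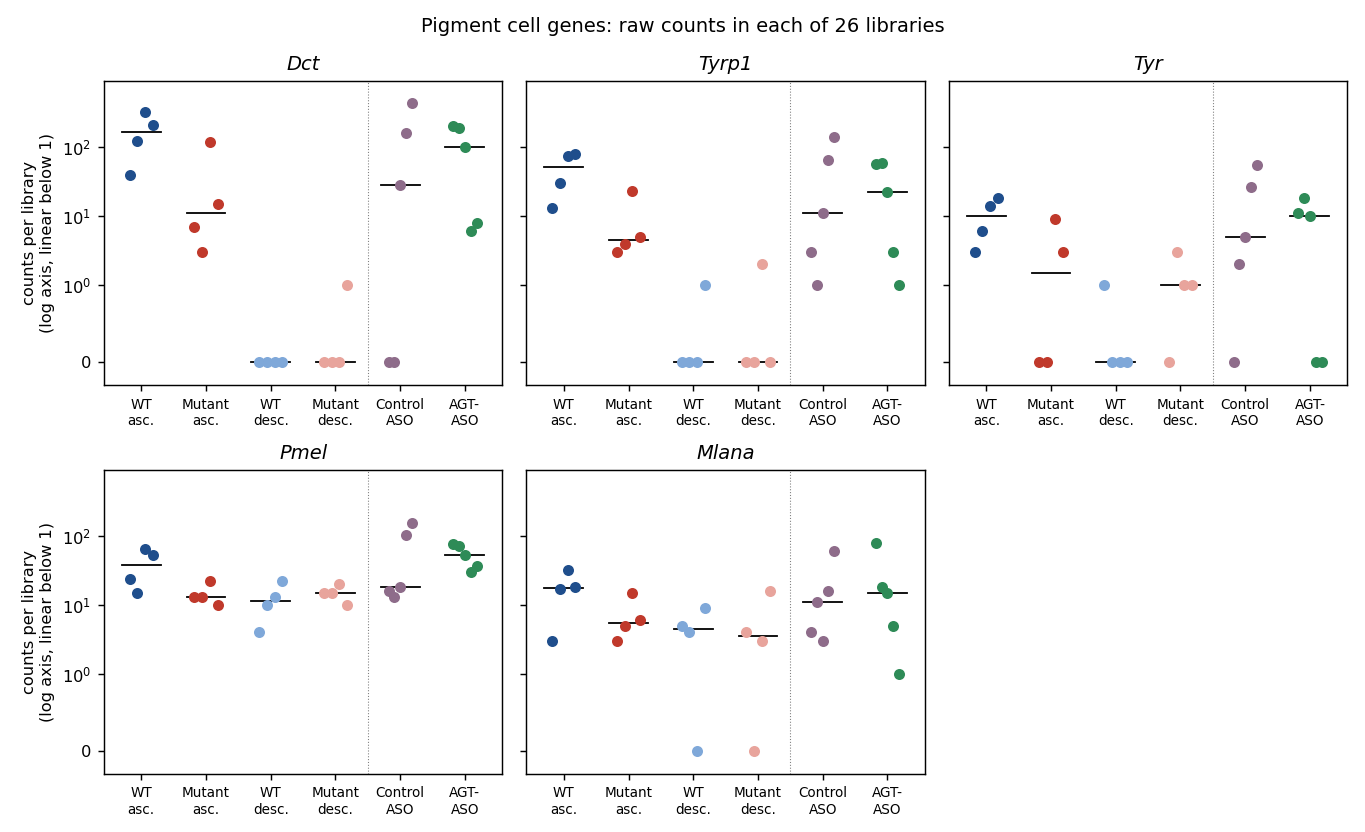
Raw counts of Dct, Tyrp1, Tyr, Pmel and Mlana in each of the 26 libraries, by group, on a log axis that is linear below 1. Points are libraries and lines are group medians. Dct reaches 39 to 316 counts in wild-type ascending libraries and 0 in all 4 wild-type descending ones, while Pmel keeps 4 to 22 counts in descending libraries of both genotypes.

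The melanosome genes Pmel and Mlana kept counts in descending aorta. Pmel (chromosome 10, 128704195 to 128720238, plus strand) had 24, 15, 65 and 52 counts in wild-type ascending and 4, 10, 13 and 22 in wild-type descending libraries. In C1041G/+ it had 13, 13, 22 and 10 counts in ascending and 15, 15, 20 and 10 in descending libraries. The groups overlapped in both genotypes, with ratios of 2.88 (2.08 to 4.05) and 0.901 (0.617 to 1.31). Exons of Pmel overlap exons of Cdk2 and Dgka on the other strand. Whether counting used strand is not given in the sources used here, so reads of those genes cannot be told apart from reads of Pmel.

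Mlana (chromosome 19, 29697824 to 29708634, plus strand) had 3, 17, 32 and 18 counts in wild-type ascending libraries and 5, 4, 0 and 9 in descending ones. The C1041G/+ libraries had 3, 5, 15 and 6 counts in ascending and 4, 0, 3 and 16 in descending aorta. The ratios were 3.52 (2.07 to 6.27) and 1.18 (0.657 to 2.13), and the groups overlapped in both genotypes. The C1041G/+ ratio turned to 0.736 without ascending replicate 6 and 0.897 without descending replicate 4, and was 2.80 without descending replicate 8. Unlike the 3 enzymes, neither melanosome gene was near 0 in every descending library.

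Mitf (chromosome 6, 97807052 to 98021349, plus strand) did not follow the pigment enzymes. It had 561, 548, 407 and 390 counts in wild-type ascending libraries and 586, 670, 414 and 475 in the descending libraries where Dct had none. In C1041G/+ it had 472, 336, 346 and 416 counts in ascending and 652, 541, 512 and 608 in descending libraries. Ascending libraries were lower than all descending ones in C1041G/+, and overlapped them in wild type. Mitf averaged 22.9 ± 4.81 and 19.2 ± 1.16 CPM in wild-type and C1041G/+ ascending aorta, and 28.2 ± 4.85 and 30.6 ± 3.94 CPM in descending aorta (SD, n = 4 each). The ratios were 0.804 (0.755 to 0.855) and 0.633 (0.593 to 0.675), with intervals that cover counting error only. The count files hold 1 row for the gene, so its start sites cannot be read apart.

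Sox10 (chromosome 15, 79154908 to 79165240, minus strand) was low in both regions. The wild-type ascending libraries had 29, 35, 24 and 32 counts and the descending ones 18, 3, 2 and 10, with no overlap. In C1041G/+ the counts were 28, 16, 27 and 34 in ascending and 7, 18, 30 and 20 in descending libraries, which overlapped. Ratios were 3.29 (2.22 to 4.99) in wild type and 1.30 (0.961 to 1.78) in C1041G/+. Leaving out 1 library at a time, the wild-type ratio ran from 2.66 to 5.44, the highest without descending replicate 1.

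S100b (chromosome 10, 76253853 to 76261159, plus strand) was the most abundant of the 8 genes per length in wild-type ascending aorta. Its counts were 135, 283, 321 and 229 in wild-type ascending and 137, 98, 85 and 148 in wild-type descending libraries. In C1041G/+ they were 129, 104, 139 and 123 in ascending and 114, 93, 184 and 158 in descending libraries. The groups overlapped in both genotypes. The ratios were 1.87 (1.67 to 2.09) in wild type and 0.840 (0.743 to 0.951) in C1041G/+. These intervals cover counting error only and leave out the spread between libraries, so they do not test a difference from 1.

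Per length, mean levels in wild-type ascending aorta fell in this order. S100b stood at 7.74 ± 2.48 CPM per kilobase of exon, Mitf at 3.69 ± 0.776, Dct at 1.39 ± 1.00, Pmel at 0.825 ± 0.506, Tyrp1 at 0.822 ± 0.554, Mlana at 0.786 ± 0.556, Sox10 at 0.468 ± 0.052 and Tyr at 0.0688 ± 0.0468 (SD, n = 4). From Dct down to Sox10, each step in this order was smaller than the SD of the higher gene, whereas Mitf stood above Dct by more than either SD. In wild-type descending aorta Mitf led at 4.55 ± 0.783 CPM per kilobase and S100b followed at 4.15 ± 1.02, a gap within their SD. Tyrp1 stood at 0.00455 ± 0.00911 there and Dct was at 0.

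**Figure D2:**
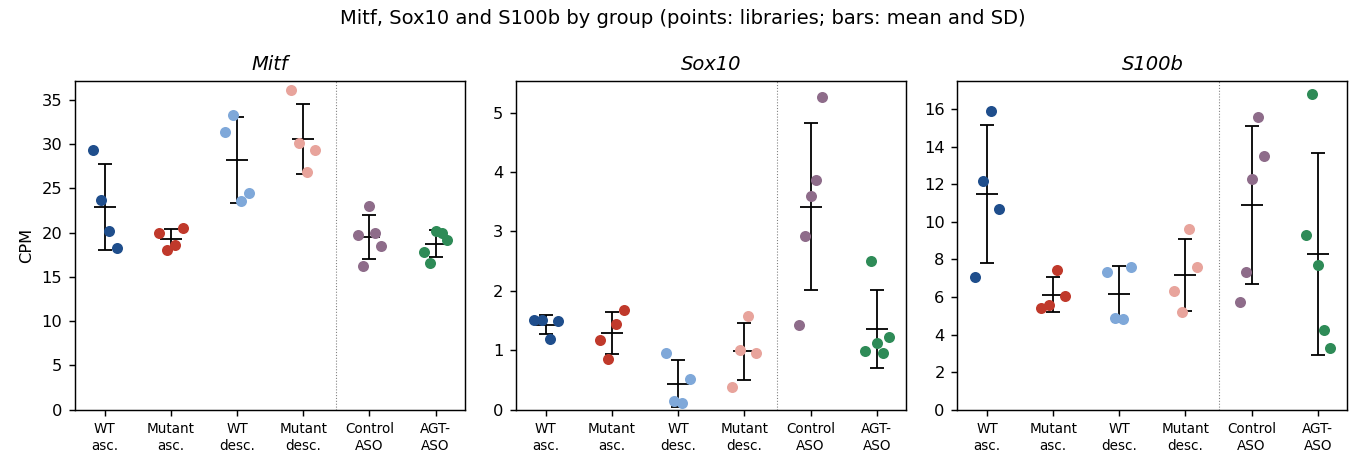
CPM of Mitf, Sox10 and S100b in each library (points) by group, with the mean and SD (bars), on linear axes that start at 0. Mitf stays between 16.2 and 36.1 CPM in all 26 libraries, and Sox10 averages 3.42 CPM with control ASO against 1.36 CPM with AGT-ASO.

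Lists of other pigment and glial genes were tested between regions with edgeR's quasi-likelihood test over 15645 genes, of which 11.1% passed an adjusted p of 0.05 in wild type (7.82% higher and 3.31% lower in ascending aorta) and 9.92% in C1041G/+ (6.41% higher and 3.51% lower). In wild type 14 of the 48 tested genes in 6 such lists passed, 12 higher and 2 lower in ascending aorta, and in C1041G/+ 12 passed, 8 higher and 4 lower. These counts ran from 10 to 14 and from 9 to 12 when 1 library at a time was left out. These lists, and those of other cell types below, were chosen with earlier results of these data known. No excess over the shares of all genes is therefore read from the counts. Over all tested genes the median log2 fold change was -0.01 in both genotypes.

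Few other pigment and melanosome genes passed between regions. Of 16 genes, 10 had enough counts to test and 2 passed in wild type. Rab27a, which moves melanosomes and other vesicles in many cell types, was lower in ascending aorta in wild type (log2 fold change -0.37 ± 0.08 SE, adjusted p = 0.00358) and in C1041G/+ (-0.32 ± 0.08, adjusted p = 0.0128, lost in 2 of 14 alternatives). Bace2, a protease that cuts Pmel, was higher in wild type (0.46 ± 0.15, adjusted p = 0.0474), a call lost in 9 of 14 alternatives. Over the 10 genes the median was 0.01 in wild type and -0.03 in C1041G/+. Mlph and Slc7a11 had log2 fold changes of 0.66 ± 0.25 (adjusted p = 0.118) and 2.35 ± 0.93 (adjusted p = 0.138) in wild type. With mouse as a block both passed, at adjusted p = 0.00587 and 0.0198, and so did Atp7a in wild type (0.37, adjusted p = 0.0167) and Mlph in C1041G/+ (adjusted p = 0.00591). Rab38 and Mreg passed as lower in C1041G/+ under other alternatives. For Rab38 this was with only the 2 groups compared (-1.229, adjusted p = 0.029), and for Mreg without descending replicate 2 (-1.165, adjusted p = 0.0482). In wild type they stood at -1.05 (adjusted p = 0.153) and -0.865 (adjusted p = 0.146). Slc45a2, a melanosomal transporter removed by the count filter, was also at 0 in descending aorta. It had 1, 7, 4 and 11 counts in wild-type ascending libraries, 1, 0, 5 and 0 in C1041G/+ ascending ones and 0 in all 8 descending libraries, and it passed in wild type when no filter was used (5.45, adjusted p = 0.028). Slc24a5 of the same list had enough counts to test and did not follow Dct. It stood at -0.195 ± 0.501 in wild type (adjusted p = 0.897) and 0.332 ± 0.533 in C1041G/+ (adjusted p = 0.814). Gpnmb did not pass either, at -0.398 ± 0.241 (adjusted p = 0.399) and -0.591 ± 0.239 (adjusted p = 0.16). Some other melanocyte markers were near the floor everywhere: Oca2 had at most 4 counts in a library, Gpr143 at most 7 and Mc1r at most 9.

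Signals and factors of melanoblasts, the melanocyte precursors, were split. Of 12 genes 9 were tested, and in wild type 2 were higher and 1 lower in ascending aorta. Tfap2a, a neural crest factor also made in surface epithelia, rose by 4.32 ± 0.53 log2 units (adjusted p = 1.33e-05) in wild type and by 3.59 ± 0.52 (adjusted p = 0.000113) in C1041G/+. Its libraries had 13 to 49 counts in untreated ascending and 0 to 2 in descending aorta. Edn3, the ligand that melanoblasts need, was lower in ascending aorta, at -1.75 ± 0.46 (adjusted p = 0.0159, lost in 3 of 14 alternatives) and -3.43 ± 0.48 (adjusted p = 7.13e-05). Its receptor gene Ednrb was higher in wild type (0.95 ± 0.28, adjusted p = 0.0372), a call lost with mouse as a block (adjusted p = 0.1). Kitl, the ligand of the melanoblast receptor KIT, stood at 0.40 ± 0.14 (adjusted p = 0.0912, and 0.000562 with mouse as a block). In C1041G/+ Tfap2a was the 1 gene higher, and Edn3, Kit and Snai2 were lower. The Snai2 call was lost in 8 of 14 alternatives and the Kit call in 2.

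The relatives of MITF did not pass: Tfeb, Tfec and Tfe3 had log2 fold changes of -0.11, -0.35 and -0.05 in wild type and -0.03, 0.39 and 0.05 in C1041G/+, 0 of 3 by edgeR or DESeq2 in either genotype and 0 at an unadjusted p under 0.05, as 21.1% and 20.1% of all genes had. Both relatives of SOX10 passed in both genotypes. Sox9, the factor of cartilage and of valve and outflow tract tissue, was higher in ascending aorta by 2.34 ± 0.38 in wild type (adjusted p = 0.000385) and 1.91 ± 0.39 in C1041G/+ (adjusted p = 0.00335). Sox8 was higher by 1.2 ± 0.24 (adjusted p = 0.0017) and 1.18 ± 0.24 (adjusted p = 0.00261).

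Schwann cell genes that passed were higher in ascending aorta, except for 2 that passed lower with mouse as a block. Of 14 tested genes of myelin and myelinating Schwann cells, 4 passed in wild type, all higher, among them Mal (1.57 ± 0.21, adjusted p = 3.44e-05), Mbp (1.70 ± 0.26, adjusted p = 0.000159) and Drp2 (2.56 ± 0.62, adjusted p = 0.00975). Mal, Mbp and Drp2 also passed in C1041G/+, with Pou3f1. The Drp2 call there was lost in 6 of 14 alternatives, 5 of which left out 1 library. Mal and Mbp are also made outside Schwann cells. Of 10 tested genes of non-myelinating Schwann cells and glia, 3 passed in wild type and 1 in C1041G/+. Ngfr, the p75 neurotrophin receptor, was higher by 3.05 ± 0.41 (adjusted p = 4.1e-05) and 1.51 ± 0.37 (adjusted p = 0.0132). Cdh19 stood at 2.06 ± 0.35 (adjusted p = 0.000433) in wild type and 0.57 ± 0.34 (adjusted p = 0.383) in C1041G/+. Erbb3 stood at 0.95 ± 0.22 (adjusted p = 0.00531) and -0.07 ± 0.21 (adjusted p = 0.914). With mouse as a block, the adhesion gene Ncam1 passed as lower in wild type (-0.40, adjusted p = 0.0028) and in C1041G/+ (-0.39, adjusted p = 0.00409), and Ugt8a as lower in C1041G/+ (-1.11, adjusted p = 0.0226). Egr2 then passed as higher in both genotypes, Ncmap in wild type and Gfap in C1041G/+. In that fit 20 of the 48 genes passed in wild type, 17 higher and 3 lower, and 17 passed in C1041G/+, 11 higher and 6 lower.

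Markers of other tissues moved with region too. In wild type, 10 of 12 heart muscle genes, 7 of 8 mesothelial genes, 4 of 9 cartilage genes, 3 of 7 autonomic neuron genes and 2 of 6 skin epithelium genes were higher in ascending aorta. In C1041G/+ 8 heart muscle, 8 mesothelial, 3 cartilage, 5 autonomic neuron and 3 skin genes were. The epidermal keratin Krt5 averaged at most 0.0362 CPM in any group. Endothelial genes were split in wild type (2 higher, 3 lower of 7), and 1 of 8 smooth muscle genes was higher and 1 of 8 adipocyte genes lower. Of 6 mast cell and 8 macrophage genes, 0 passed in wild type by edgeR or by DESeq2, with 1 of each at an unadjusted p under 0.05. With mouse as a block the mast cell gene Hdc passed as higher in wild type (1.26, adjusted p = 0.00526) and in C1041G/+ (1.49, adjusted p = 0.00183). The mean log2(CPM + 0.1) over 11 heart muscle genes was 3.39 to 6.41 in wild-type ascending and 0.801 to 1.17 in wild-type descending libraries. The same score over 6 cartilage genes was 2.88 to 4.73 and 1.77 to 2.09. Their part in the region values of the pigment and glial genes was not tested, and in bulk tissue more cells of a type cannot be told apart from more RNA per cell.

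**Figure D3:**
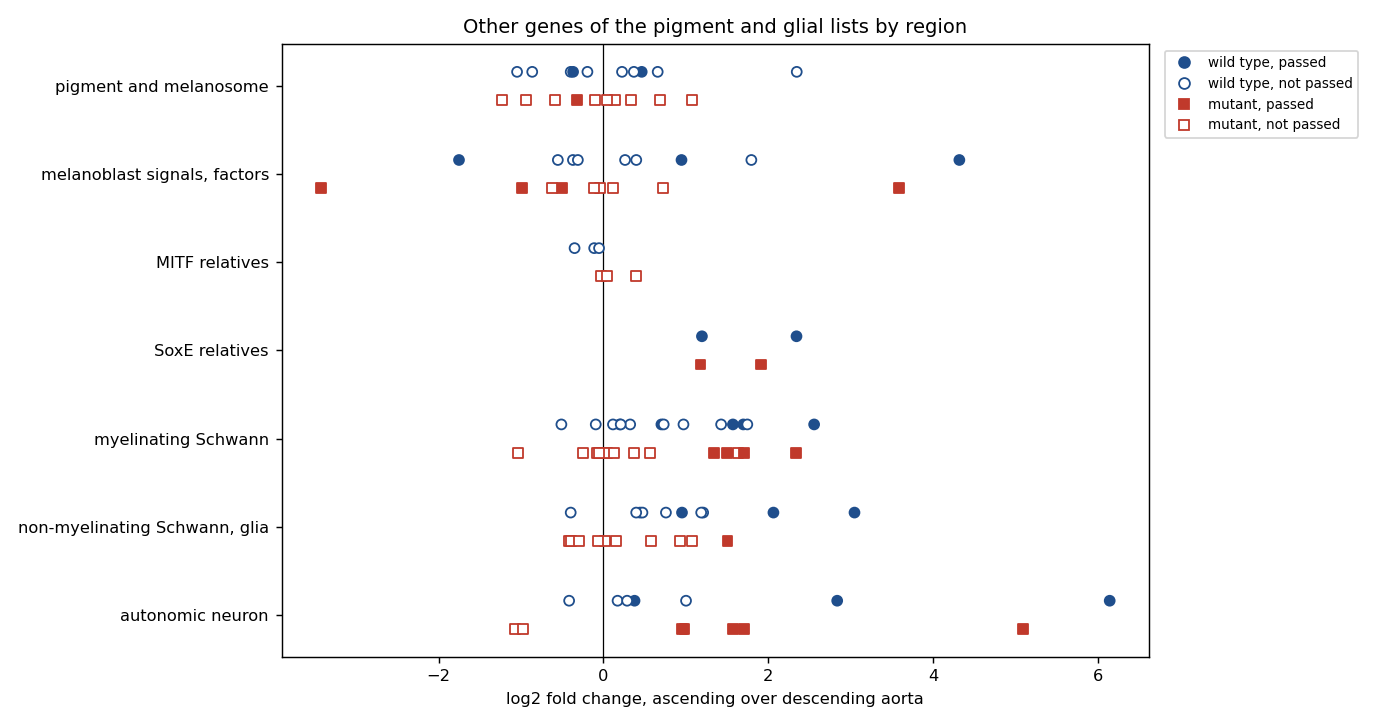
Log2 fold change of ascending over descending aorta for each tested gene of 7 lists, in wild type (circles) and C1041G/+ (squares). Filled symbols passed an adjusted p of 0.05. Both SoxE genes, Sox8 and Sox9, lie to the right of 0 in both genotypes, and Edn3 lies farthest to the left.

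The rule that chose the genes used region, and genotype was tested. The choice drew on the same untreated libraries, and wild-type ascending aorta is the reference group here. Lower C1041G/+ values in ascending aorta are therefore not independent of the choice. In ascending aorta the means of all 8 genes were lower in C1041G/+ than in wild type. Over all tested genes the median log2 fold change was -0.01. Of the 7 tested genes 0 passed, in a comparison where 2.19% of 15645 genes passed. Of the 7, 4 had an unadjusted p under 0.05, as had 16.2% of all genes tested, and DESeq2 called 2. Over all genes DESeq2 called more than edgeR in this and the later comparisons, with the counts in the last section. The genotypes overlapped for all 7, whereas 9.58% of all genes did not overlap. Tyrp1 averaged 2.33 ± 1.57 CPM in wild type and 0.455 ± 0.522 CPM in C1041G/+ (SD, n = 4), a log2 fold change of -2.38 ± 0.67 (SE, adjusted p = 0.0724). Its highest C1041G/+ library, with 23 counts, lay above the lowest wild-type one, with 13. S100b averaged 11.5 ± 3.68 and 6.13 ± 0.931 CPM, a log2 fold change of -0.92 ± 0.24 (adjusted p = 0.052). Here too 1 C1041G/+ library, at 7.46 CPM, lay above the lowest wild-type library, at 7.04 CPM.

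Dct stood at a log2 fold change of -2.16 ± 0.93 (adjusted p = 0.287). C1041G/+ ascending replicate 6 had 117 Dct counts and the other 3 had 3 to 15. Without that library the log2 fold change was -4.35 (adjusted p = 0.00949), and Tyrp1 passed as well at -3.56 (adjusted p = 0.0126). Without wild-type replicate 1, which had the fewest counts of Dct among wild-type ascending libraries, Tyrp1 passed (adjusted p = 0.0402) and S100b passed (adjusted p = 0.0148). DESeq2 gave adjusted p = 0.0459 for Tyrp1 and 0.00764 for S100b. S100b also passed in edgeR without a count filter (adjusted p = 0.045). The calls for these 3 genes therefore turned on 1 library, the tool or the filter.

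Pmel stood at -1.39 ± 0.49 (adjusted p = 0.159), Mlana at -1.19 ± 0.78 (adjusted p = 0.484), Mitf at -0.26 ± 0.14 (adjusted p = 0.389) and Sox10 at -0.16 ± 0.45 (adjusted p = 0.896). Tyr had too few counts for the fit. It averaged 0.489 ± 0.333 CPM in wild type and 0.158 ± 0.228 CPM in C1041G/+ (n = 4 each, two-sided exact permutation test p = 0.171, adjusted p = 0.342 over 2 tests, smallest possible p = 0.0286). Of the 48 tested genes in the pigment, melanoblast and Schwann lists, 0 passed by edgeR, 5 had an unadjusted p under 0.05 and DESeq2 called 1, Mlph, higher in C1041G/+ (0.87 ± 0.24, edgeR adjusted p = 0.0674). Mlph, which links melanosomes to myosin, also passed with mouse as a block (adjusted p = 0.0322). The cartilage gene Chad was lower in C1041G/+ by a log2 fold change of -2.91 ± 0.43 (adjusted p = 0.00194), with 401 to 1516 counts in wild-type and 40 to 168 in C1041G/+ ascending libraries. Acan, another cartilage gene, was higher (1.24 ± 0.09, adjusted p = 9.44e-07), and Dsp was lower (-0.90 ± 0.17, adjusted p = 0.00722). Uchl1 (0.54 ± 0.10, adjusted p = 0.005) and Tagln (0.40 ± 0.09, adjusted p = 0.0198) were higher. The part of these marker genes in the pigment values was not tested.

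In descending aorta 0 of 7 tested genes passed between genotypes by edgeR, against 1.21% of all genes, and DESeq2 also called 0. Sox10 was the 1 gene with an unadjusted p under 0.05. It averaged 0.435 ± 0.395 CPM in wild type and 0.981 ± 0.484 CPM in C1041G/+ (SD, n = 4), a log2 fold change of 1.16 ± 0.51 (adjusted p = 0.414). Its libraries overlapped. Pmel, Mlana, Mitf and S100b had log2 fold changes between 0.11 and 0.31, with adjusted p from 0.842 to 0.95. Dct, Tyrp1 and Tyr had at most 3 counts in any descending library, so a genotype difference was not detectable at this depth. Tyr gave a two-sided exact permutation p of 0.371. Of the 48 list genes 0 passed by edgeR, 10 had an unadjusted p under 0.05 (10.8% of all genes had) and DESeq2 called 1, Mlph. Cdh19, Ngfr and Erbb3 stood at 0.80 ± 0.36, 1.11 ± 0.45 and 0.69 ± 0.22 (adjusted p = 0.425, 0.356 and 0.167). They are the genes of their list that passed between regions in wild type. The list was split, since mean CPM of Ncam1 and Gfap was lower in C1041G/+ than in wild type. Acan was higher (1.24 ± 0.09, adjusted p = 4.89e-07), and Dsp (-1.29 ± 0.17, adjusted p = 0.000497) and Des (-0.52 ± 0.12, adjusted p = 0.0352) were lower.

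Whether the genotype difference itself differed between regions was tested as an interaction. It rests on the same ascending and descending values as the choice of genes. S100b had the smallest p of the 7 tested genes: the C1041G/+ effect was lower in ascending than in descending aorta by 1.13 ± 0.34 log2 units (unadjusted p = 0.00364, adjusted p = 0.599). By edgeR 0 of 7 genes passed, 2 (S100b and Pmel) had an unadjusted p under 0.05, where 5.08% of all genes had, and DESeq2 called 0. Among all 15645 genes 0.00639% passed, which is 1 gene. With mouse as a block, the adjusted p of the 7 genes lay between 0.312 and 0.82. The different region ratios of S100b, Sox10 and Pmel in wild type and C1041G/+ were thus not shown to differ by this test, and Tyr had too few counts to enter it.

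AGT-ASO was compared with control ASO in 10 ascending libraries of C1041G/+ mice, a contrast the rule did not use. None of the 8 genes passed by edgeR, against 0.0668% of 14981 genes tested (10 genes). Sox10 came closest. It had 20, 43, 20, 22 and 21 counts with AGT-ASO and 33, 66, 62, 106 and 102 with control ASO, or 1.36 ± 0.651 against 3.42 ± 1.41 CPM (SD, n = 5). The groups overlapped at 1 library on each side, AGT-ASO replicate 15 and control replicate 8. The log2 fold change was -1.34 ± 0.36 (unadjusted p = 0.00195, adjusted p = 0.16), and Sox10 was the 1 gene of the 8 with an unadjusted p under 0.05, against 12.7% of all genes. DESeq2 called Sox10 (adjusted p = 0.0259), and so did the fits without a count filter (adjusted p = 0.022) and without control replicate 8 (-1.54, adjusted p = 0.0306).

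Pigment genes varied more within each antisense group than between them. Dct had 203, 190, 101, 6 and 8 counts with AGT-ASO and 0, 0, 28, 160 and 433 with control ASO. Its mean was 5.50 ± 5.10 CPM against 5.97 ± 9.48 CPM (SD, n = 5), and the log2 fold change was -0.12 ± 1.45 (adjusted p = 0.985). Control replicates 8 and 12 had no Dct counts and replicate 17 had the most of all 26 libraries. Tyrp1 ranged over 1 to 58 counts with AGT-ASO and 1 to 138 with control ASO (-0.44 ± 1.28, adjusted p = 0.927), and Tyr over 0 to 18 and 0 to 55 (-0.97 ± 1.19, adjusted p = 0.792). Pmel ranged over 30 to 76 and 13 to 151 counts (0.03 ± 0.70, adjusted p = 0.993), and Mlana over 1 to 79 and 3 to 60 (0.44 ± 1.02, adjusted p = 0.904). The SE of 0.70 to 1.45 means that only large differences could have been called for these 5 genes.

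Under AGT-ASO Mitf was at 18.8 ± 1.5 CPM, and under control ASO at 19.5 ± 2.47 CPM, a log2 fold change of -0.06 ± 0.10 (adjusted p = 0.846). S100b was 8.28 ± 5.38 and 10.9 ± 4.19 CPM (-0.41 ± 0.46, adjusted p = 0.770). The S100b counts were 189, 289, 137, 99 and 56 with AGT-ASO and 133, 165, 212, 426 and 262 with control ASO, so the groups overlapped.

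Other Schwann cell genes stood lower with AGT-ASO beside Sox10, and passed only under some settings. Of the 9 tested genes of non-myelinating Schwann cells, 0 passed by edgeR, 6 had an unadjusted p under 0.05 and DESeq2 called 4. Their median log2 fold change was -1.08, against -0.01 for all genes. The following were chosen after their values were seen. Gfra3, a receptor subunit of Schwann cells and sensory neurons, stood at -1.72 ± 0.36 (adjusted p = 0.079), with 11 to 41 counts with AGT-ASO and 45 to 153 with control ASO. Scn7a, an ion channel gene of Schwann cells, stood at -0.73 ± 0.14 (adjusted p = 0.0819), with 409 to 801 and 980 to 1279 counts. The groups did not overlap for these 2 genes, as for 1.06% of all genes tested in that direction. Erbb3, the neuregulin receptor of Schwann cells, stood at -1.08 ± 0.26 (adjusted p = 0.12) and Cdh19 at -1.28 ± 0.36 (adjusted p = 0.186). Over 6 pigment, melanoblast and Schwann lists 0 of 42 tested genes passed by edgeR, 14 had an unadjusted p under 0.05 (12.7% of all genes had) and DESeq2 called 5, all lower, among them Gfra3, Scn7a, Erbb3 and Cdh19. Without a count filter Gfra3 (adjusted p = 0.000715) and Erbb3 (adjusted p = 0.0404) passed in edgeR. In edgeR without control replicate 8, 6 genes of these lists passed, all lower, among them the same 4 at adjusted p from 0.0127 to 0.0361.

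Heart muscle genes stood lower with AGT-ASO as well. Their score was 4.55 ± 0.755 with AGT-ASO and 5.96 ± 0.549 with control ASO (SD, n = 5), and the median log2 fold change of the 11 tested genes was -1.48. By edgeR 0 of the 11 passed, all 11 had an unadjusted p under 0.05 and DESeq2 called 3. Over all genes tested, 12.7% had an unadjusted p under 0.05 and 0.0668% passed by edgeR, while DESeq2 called more. The non-myelinating Schwann score was 1.82 ± 0.249 and 2.71 ± 0.404, with 1.52 to 2.07 and 1.99 to 2.98 as the ranges. Mast cell genes stood lower as well, with a score of 0.588 ± 1.19 with AGT-ASO and 2.13 ± 0.871 with control ASO. By edgeR 0 of the 5 tested mast cell genes passed, 3 had an unadjusted p under 0.05 and DESeq2 called 1, Hdc (-1.26, adjusted p = 0.0384). Of 8 macrophage genes 0 passed by edgeR, 3 had an unadjusted p under 0.05 and DESeq2 called 2, Cd68 as higher (1.03, adjusted p = 0.00079) and Lyve1 as lower (-0.91, adjusted p = 0.0181). The 7 tested adipocyte genes had a median log2 fold change of -0.76. The part of these cell types in the Sox10 values was not tested.

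The 18 ascending libraries differed widely in pigment gene counts within every group, so the genes were compared with each other after the group means of log2(CPM + 0.1) had been removed. Dct had at least 100 counts in 9 of the 18 libraries, 10 to 99 in 3 and under 10 in 6. Dct and Tyrp1 rose and fell together, with Pearson's r = 0.964 and Spearman's rho = 0.954 (permutation within groups with 100000 resamples, adjusted p = 0.000496 and 0.00062 over 124 relations). Within the 8 untreated libraries r was 0.925, within the 10 antisense libraries 0.974, and without the 2 libraries farthest in Dct 0.957. Dct and Tyr gave r = 0.964 and rho = 0.968 (permutation, adjusted p = 0.000496 and 0.000413), with r = 0.951 in untreated and 0.968 in antisense libraries and 0.945 without the 2 farthest.

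Of the 28 pairs among the 8 genes, 13 passed, all of them among Dct, Tyrp1, Tyr, Pmel, Mlana and S100b. Pmel and Mlana each missed the threshold with S100b (adjusted p = 0.0511 and 0.0516 for Pearson's r, by permutation). Dct with Pmel gave r = 0.859 and rho = 0.846 (permutation, adjusted p = 0.00124 and 0.00259), Dct with Mlana r = 0.768 and rho = 0.83 (0.00496 and 0.00259) and Dct with S100b r = 0.83 and rho = 0.896 (0.000496 and 0.000413). Within the 8 untreated libraries the last r was 0.758, within the 10 antisense ones 0.845, and 0.835 without the 2 farthest. Pairs with Mitf ran from r = -0.506 (with Mlana) to -0.0422 (with Sox10), and none passed. Dct with Mitf gave r = -0.146 and rho = -0.142 (permutation, adjusted p = 0.715 and 0.765). Sox10 did not pass with any of the other 7. Its r with Dct was 0.651 and rho 0.598 (permutation, adjusted p = 0.0842 and 0.143), and r fell to 0.446 without the 2 libraries farthest in Dct. In the 8 untreated libraries alone 0 of the 28 pairs passed by permutation, and in the 10 antisense libraries 9 did. Within the small untreated groups few rearrangements exist. After adjustment over all relations, the smallest possible p passes only if several relations have very small p. Nothing is read from that 0.

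**Figure D4:**
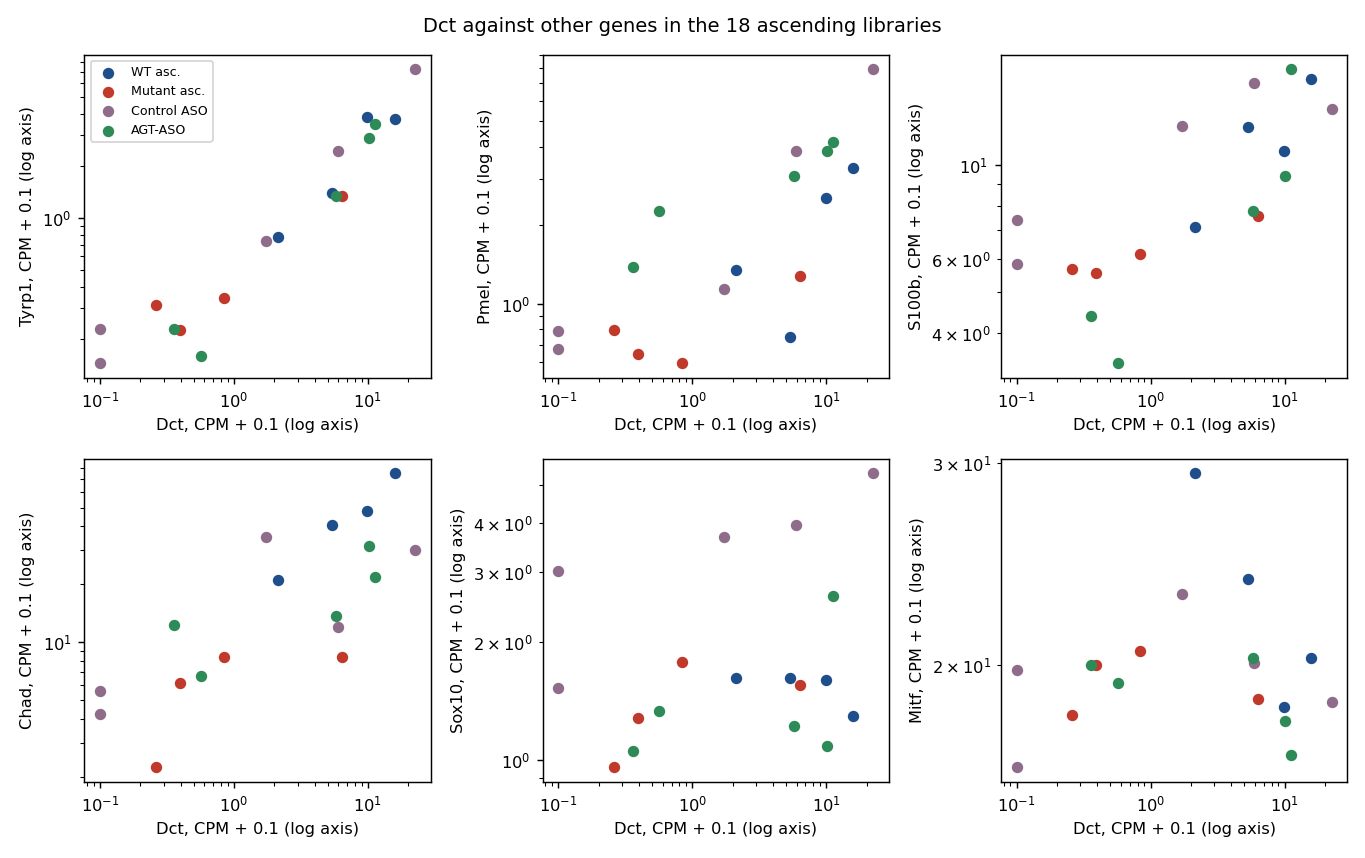
Dct against Tyrp1, Pmel, S100b, Chad, Sox10 and Mitf in the 18 ascending libraries, as CPM + 0.1 on log axes, coloured by group and without removal of group means. Tyrp1 follows Dct closely in every group (r = 0.964 after removal of group means), and Mitf does not (r = -0.146).

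Each of the 8 genes was also compared with the scores of 12 marker lists, among them the Schwann lists. The cartilage score went with most pigment genes. Its r was 0.766 with Dct (rho = 0.742, permutation, adjusted p = 0.00647 and 0.0163), 0.746 with Tyr, 0.711 with Tyrp1 and 0.790 with S100b (rho = 0.781, adjusted p = 0.000496 and 0.00505). With Dct, r was 0.748 in untreated and 0.841 in antisense libraries and 0.714 without the 2 farthest. Of the 96 relations with marker scores 8 passed, and 5 of the 8 were with the cartilage score. Sox10 was among them (r = 0.630, rho = 0.531, adjusted p = 0.0386 and 0.143, by permutation), with r = 0.447 without the 2 farthest libraries. Its r was as high with the myelinating (0.641) and non-myelinating (0.630) Schwann scores, which did not pass (permutation, adjusted p = 0.103 and 0.117). Sox10 was thus not shown to go with cartilage more than with Schwann cell genes. Of the Schwann lists, the myelinating list passed with S100b by Pearson's r (r = 0.583, rho = 0.523, permutation, adjusted p = 0.0277 and 0.144). The autonomic neuron score did so as well (r = 0.740, rho = 0.628, permutation, adjusted p = 0.0201 and 0.109), although r was 0.347 in the untreated libraries. S100b passed with the heart muscle score too (r = 0.630, rho = 0.674, permutation, adjusted p = 0.0247 and 0.0298), which Dct did not (r = 0.480, rho = 0.527, adjusted p = 0.0994 and 0.143). The scores of skin epithelium and mesothelium gave r = 0.22 and 0.03 with Dct.

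**Figure D5:**
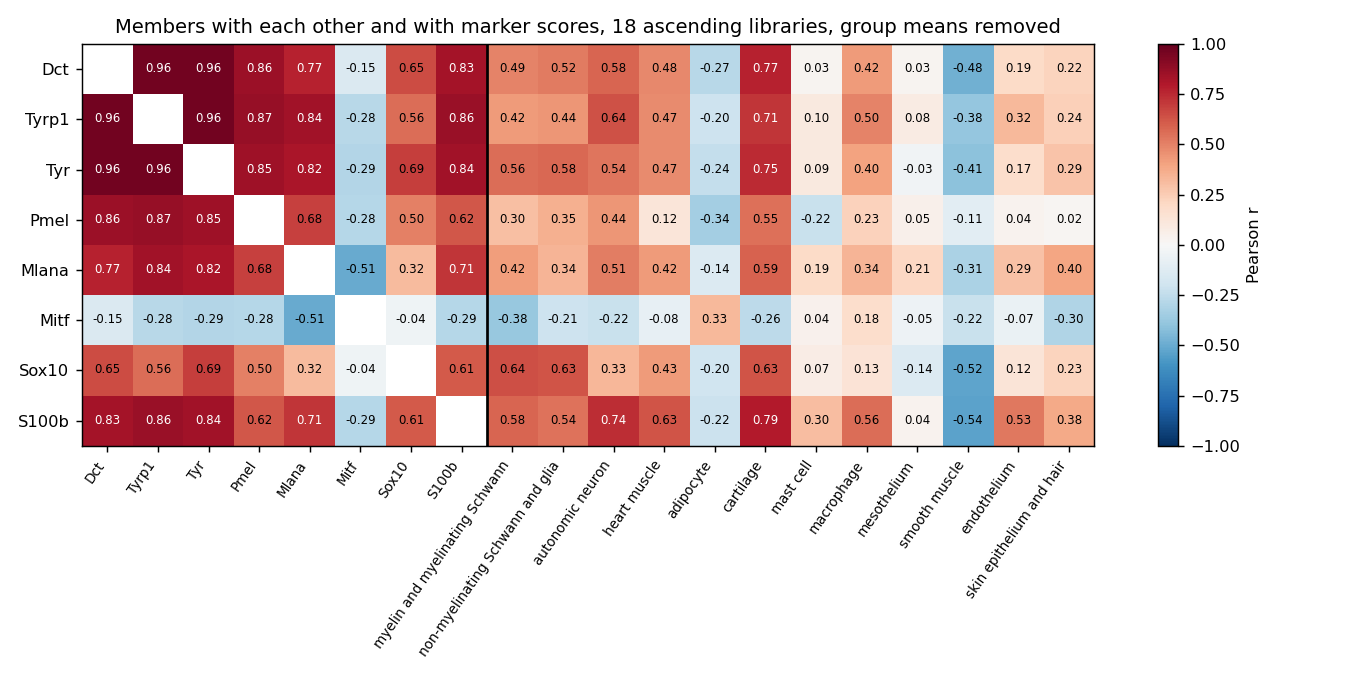
Pearson's r of each of the 8 genes (rows) with the other genes and with 12 marker scores (columns) over the 18 ascending libraries, group means removed. Red is positive and blue negative. The 5 pigment genes and S100b form a block of positive values, Mitf has negative values with all 7 other genes, and the cartilage column is positive for all genes but Mitf.

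Gene by gene, the cartilage list did not move as 1 block with Dct. As a description over 18 libraries, r with Dct was 0.796 for Chad, 0.737 for Comp, 0.705 for Hapln1, 0.683 for Col9a1, 0.509 for Cnmd and -0.525 for Acan. Matn1, a defining gene of hyaline cartilage, had at most 2 counts in any library. Sox9 gave r = 0.758 and Sox8 -0.205. Among melanosome genes Gpnmb, which macrophages also make, gave 0.796, and the other 7 tested in both fits lay between -0.268 and 0.396.

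Among 13042 genes kept in both fits, the named genes most like Dct over the 18 libraries were Tyrp1 (r = 0.964), Bcan (0.910), Gal3st2b (0.873), Cd74 (0.873) and Mmp12 (0.866). Pmel ranked 7, S100b 14, Mlana 45, Sox10 218 and Mitf 8415 in that order. Bcan, a proteoglycan gene, had 3 to 92 counts in ascending and 0 to 5 in descending libraries. The genes most like Sox10 were Kitl (0.854), Tle2 (0.837), Cep128 (0.810), Zfp964 (0.803) and Cdh19 (0.802), with Dct at rank 101. From the Schwann lists Foxd3 gave r = 0.718 with Sox10 and Erbb3 0.183. The 18 points are shared by all ranked genes, and so are their dissection and depth.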

How the data were processed

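RNA of mouse aorta was sequenced in 26 libraries. Each library has 1 deposited file of raw, unscaled counts for Ensembl identifiers. The submitters' processing notes name fastp, STAR 2.6.1d and the mm10 build. Which tool counted the reads, and with what strand setting, is not given in the sources used here. Identifiers were named with GENCODE annotation (54409 of 54532 matched), and 0 pairs of libraries held identical values.

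Counts were fitted with edgeR 4.0.16 in R 4.3.3 (TMM scaling, filterByExpr by group, robust quasi-likelihood test, Benjamini-Hochberg adjustment over all genes tested, threshold 0.05). The 16 untreated libraries were fitted together and the 10 antisense libraries apart. The fit was tested on simulated data. CPM used TMM-scaled depth over all 26 libraries, SD is between libraries and SE belongs to the log2 fold change. Tyr, removed by the filter among untreated libraries, was tested by exact permutation. A marker score is the mean log2(CPM + 0.1) of a list's genes kept in both fits. A count of 0 allows up to 3 counts. Intervals and floors cover counting error only.

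The members and lists were chosen with earlier results of these data known. Named were all 8 genes, up to 4 genes of a list with the smallest p between regions in wild type (lists of other cell types mainly as counts), list genes called by genotype or AGT-ASO, and the 5 genes most like Dct and Sox10, unnamed models and pseudogenes left out. Alternatives were DESeq2 1.42.0, RLE scaling, no filter, at least 1 CPM in 4 libraries, each library left out, only the groups compared, and mouse as a block (fixed, or random with limma 3.58.1). Ascending and descending libraries share numbers in the labels. In each of 8 pairs the deviations from the group means correlated (r = 0.204 to 0.368, mean -0.0963 for other pairings), so the numbers were taken to pair the mice. Some genes of the lists are counted but not reported by name here.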

Additional observations from a re-analysis of the deposited data

Results flagged for a closer look

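Of 47 groups of 4 or 5 libraries, 11 held a library far from the others. Chance alone gives about 1 in 20 for normally distributed values, which low and skewed counts are not. A group with counts in only 1 library is always flagged, so no excess is read from the 11. In C1041G/+ ascending aorta, replicate 6 stood apart for Dct (6.28 CPM) and Tyrp1 (1.24 CPM). Among control ASO libraries, replicate 17 stood apart for Dct (22.4 CPM) and Mlana (3.10 CPM). Among AGT-ASO libraries, replicate 14 stood apart for Mlana (3.89 CPM) and replicate 15 for Sox10 (2.51 CPM). In wild-type ascending aorta, replicate 5 was the lowest for Sox10 (1.19 CPM), in the group with the smallest Sox10 spread. The other 4 rest on 1 or 2 counts in descending libraries: Dct in C1041G/+ replicate 8 (0.0481 CPM), Tyrp1 in wild-type replicate 7 (0.0515 CPM) and C1041G/+ replicate 6 (0.105 CPM), and Tyr in wild-type replicate 1 (0.0533 CPM).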

How the results depend on the processing

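DESeq2 called 779 genes for genotype in ascending aorta (2 of the 8 genes described), 414 in descending aorta, 38 for the interaction and 289 for AGT-ASO (1 of the 8), where edgeR called 342, 189, 1 and 10. Without a count filter 6 genes passed for the interaction, 147 for AGT-ASO (1 of the 8), and 1 of the 8 for genotype in ascending aorta. Leaving out 1 library at a time, calls ran from 163 to 347 (0 to 2 of the 8) for genotype in ascending aorta, 128 to 170 in descending aorta (0 of the 8), 1 to 10 for the interaction (0 of the 8), 0 to 180 for AGT-ASO (0 to 1 of the 8), 1409 to 1782 for region in wild type and 1247 to 1425 in C1041G/+. The exact p of Tyr ran from 0.114 to 0.314 in ascending and 0.114 to 0.486 in descending aorta. With mouse as a fixed replicate block the interaction called 13 genes. With mouse as a random block Tyrp1 had an adjusted p of 0.0542 and S100b of 0.0759 for genotype in ascending aorta, and the block changed no call of the 8 genes. Of the relations, 14 pairs and 5 with marker scores passed without the 2 farthest libraries, 0 and 0 in the 8 untreated libraries and 9 and 1 in the 10 antisense libraries. In the 8 untreated libraries few rearrangements exist, so a relation could pass there only beside several others with very small p. A pseudocount of 0.5 CPM gave 13 and 8 and ranks gave 15 and 6, both chosen after seeing the data. Where no value above shows it, the cause was not tested. Depth limits Tyr most, and Dct and Tyrp1 in descending aorta.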
